A study of Mus musculus with 11 samples.

Results

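The 10 genes described here encode the membrane sector (V0) of the vacuolar ATPase and its accessory subunits. They were picked by symbol, namely Atp6v0a1, Atp6v0a2 and Tcirg1 for subunit a, Atp6v0b and Atp6v0c for the proteolipid ring, Atp6v0d1 and Atp6v0d2 for subunit d, Atp6v0e for subunit e, and Atp6ap1 and Atp6ap2 for the accessory proteins. All 10 were among the 17475 rows of the deposited expression table. Their messenger RNA was measured in macrophages sorted from mammary tumours of 6 female mice, backcrossed to B6. Tumours arose in all of them through PyMT, an oncogene from a mouse virus. The control mice (1, 3 and 5) carried PyMT alone, and the MYC mice (2, 4 and 6) had the genotype S100a8-creRosa26-LSL-MYCPyMT, in which the S100a8 promoter drives the Cre that switches on MYC. Mice of both genotypes were lethally irradiated at 7 weeks of age and given 3 M (M for mega) bone marrow cells from wild-type B6 mice, so cells that grew from the graft carried no MYC transgene, and the labelled genotype is that of the host. A low protein diet was started 2 weeks after that and lasted 6 weeks in every mouse, and no other diet was compared.

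The vacuolar ATPase is a rotary pump that moves protons into lysosomes, endosomes and other compartments. Its cytosolic V1 sector breaks down ATP, and its V0 sector carries the protons through the membrane, with subunit a giving the path and the proteolipid ring (subunits c and c'') turning beside it. Subunit d sits on top of the ring and joins it to the central stalk. Several subunits exist as isoforms made from separate genes. Tcirg1 (subunit a3) and Atp6v0d2 (subunit d2) are known from osteoclasts, the bone-resorbing relatives of macrophages, which place the pump in the plasma membrane, and Atp6v0d2 is also found in other macrophages.

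After a gate on the macrophage protein of the gene Emr1, cells positive for Vcam were collected as tumour-associated macrophages (TAMs), and cells negative for Vcam and positive for FOLR2 as mammary tissue macrophages (MTMs). Each control mouse gave a TAM and an MTM library (3 of each), while the MYC mice gave 3 TAM libraries and, from mice 2 and 4, 2 MTM libraries. Values are on the deposited log2 scale, which behaved as the log2 of a level plus 1 that had been scaled for depth and gene length, so levels of different genes can be set side by side. About 32.5 to 43.0 M reads per library fell in genes, an estimate that rests on the steps between the lowest values. Folr2 followed the gates, at 0.96 to 3.62 in TAMs and 7.67 to 8.45 in MTMs. Vcam1 did so in control mice (7.64 to 8.60 in TAMs, 5.25 to 6.86 in MTMs), but in the libraries labelled MYC TAM it was 0.96 to 2.82, below every control MTM library, and in MYC MTMs it was 2.31 to 2.32. The mean log2 level of 6 measured macrophage markers was 7.38 to 7.90 in MYC TAMs and 8.10 to 8.75 in the other libraries. The 6 genes did not go one way: between genotypes in TAMs, Csf1r, Emr1, Fcgr1 and C1qa fell, Cd68 rose (from 8.17 to 8.51 up to 10.18 to 10.41), and Mertk (1.01 ± 0.38, adjusted p = 0.112) did not pass. The summed linear level of 10 epithelial markers was 764 to 1785 in TAMs and 485 to 1234 in MTMs of control mice, against 40.5 to 432 and 373 to 446 in those of MYC mice. That of 10 T and NK cell markers was 62.0 to 134, 45.1 to 59.3, 2.80 to 7.79 and 5.31 to 21.6 in the same order, with Cd3e at its floor (0.04) in every MYC TAM library. Neutrophil markers (5 measured) had a summed level of 68.5 to 119.9 in MYC TAMs, 53.7 to 73.8 in control TAMs and 36.6 to 70.9 in MTMs, ranges that overlap. Of these 5, 2 rose and 0 fell by limma between genotypes in TAMs, where 3.89% of all genes rose and 12% fell. They were S100a8, whose promoter drives the Cre, by 2.00 ± 0.57 (adjusted p = 0.0430), and Cxcr2, near its floor, by 0.16 ± 0.05 (adjusted p = 0.0490). Each call was lost without any 1 of the control TAM libraries. Csf3r overlapped, at 5.54 to 5.94 in control TAMs and 5.19 to 6.15 in MYC TAMs. The part of these markers in the results below was not tested. The libraries of control TAM mouse 1 and MYC TAM mouse 4 were the highest for the satellite-type gene model Gm10800, at 9.65 and 14.05. MYC TAM mouse 2 followed at 8.23, and the remaining libraries lay at 4.69 to 6.23. MYC TAM mouse 4 also had 581 genes at their floor against 2072 to 3522 in the others. In bulk samples, fewer cells of a type and less RNA per cell cannot be told apart.

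The genes lie on 7 chromosomes, and the promoters of 3 of them are shown because they hold the 6-base E-box CACGTG or its 8-base form TCACGTGA, the letters that MiT/TFE factors, regulators of lysosomal genes, are known to bind. RefSeq promoters of GRCm38.p6 (250 bases before to 50 after a start) were found for 8 of the 10 genes, in 12 windows; Atp6v0d2 and Atp6v0a2 had no entry. Each line gives 120 bases before the start and 30 from it, with the boxes in capitals.
Atp6v0b, chr4:117887300-117887449, minus strand: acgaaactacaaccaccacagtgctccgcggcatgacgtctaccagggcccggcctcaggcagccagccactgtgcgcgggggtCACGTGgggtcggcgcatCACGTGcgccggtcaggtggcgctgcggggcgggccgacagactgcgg
Atp6v0d1, chr8:105566035-105566184, minus strand: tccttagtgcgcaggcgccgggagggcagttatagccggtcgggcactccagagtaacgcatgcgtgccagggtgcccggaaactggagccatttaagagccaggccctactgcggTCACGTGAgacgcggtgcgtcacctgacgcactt
Atp6v0e, chr17:26676276-26676425, plus strand: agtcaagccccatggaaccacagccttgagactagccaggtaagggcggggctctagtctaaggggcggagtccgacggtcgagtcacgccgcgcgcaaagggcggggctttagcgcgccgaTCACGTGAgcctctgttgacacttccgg

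Of the 8 genes with a promoter, 2 held TCACGTGA (Atp6v0d1 and Atp6v0e) and 3 held CACGTG, which is part of it. By window, the unit of the shares over all promoters, these were 2 and 3 of 12. Both strands were searched. Over all 32851 promoters of this length, 0.974% held TCACGTGA and 7.15% held CACGTG. The box of Atp6v0d1 began at base -4 from the start and that of Atp6v0e at base 2, with the start as base 0, while Atp6v0b had a pair of boxes at -36 and -18. Another letter string searched, TCATGTG, was in a promoter of Atp6v0c and in 3.77% of all promoters, and the AP-1-type string TGANTCA was in that of Atp6v0a1 and in 7.81% of all. These matches describe the letters and not binding.

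Subunit d showed the widest range. Atp6v0d2 (chr4:19876841-19922605, minus strand, GRCm38) read 1.01, 1.00 and 1.75 in the TAMs of control mice 1, 3 and 5, and 3.94, 3.03 and 3.92 in their MTMs. In MYC mice it read 9.60, 9.94 and 9.89 in the TAMs of mice 2, 4 and 6, and 7.86 and 8.65 in the MTMs of mice 2 and 4. The 4 groups did not overlap for this gene, and their order was MYC TAMs, MYC MTMs, control MTMs and control TAMs. In linear units this was a level of 1.00 to 2.36 in control TAMs and 775 to 983 in MYC TAMs, and in estimated reads 76.7 to 184 against 64928 to 80159, so the low group was not at the limit of detection. By mean log2 level over 17475 genes, Atp6v0d2 was at rank 8721 in TAMs and 3813 in MTMs of control mice, and at rank 47 in TAMs and 192 in MTMs of MYC mice.

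**Figure D1:**
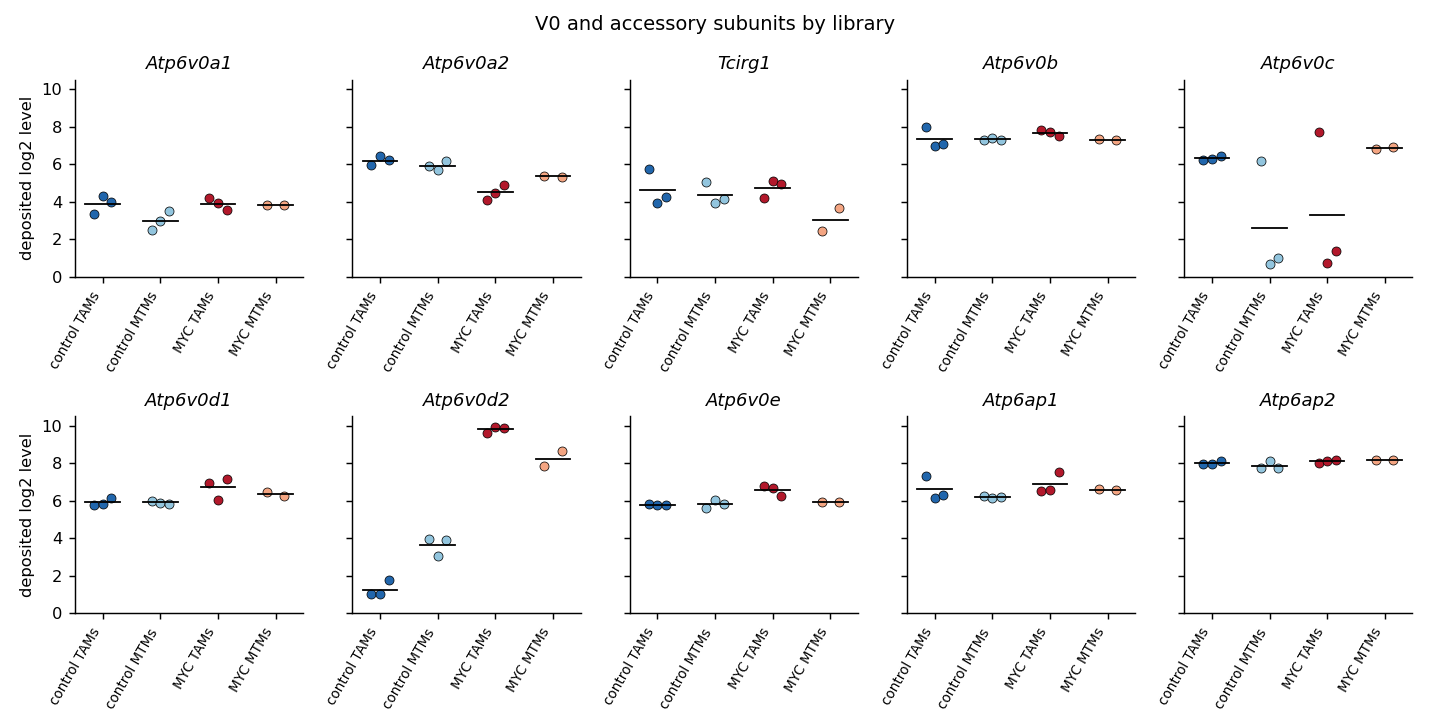
Deposited log2 level of each of the 10 genes (vertical axis) in each library, by group (horizontal axis), with points for libraries and lines for group means. Atp6v0d2 separates the 4 groups, from 1.00 to 1.75 in control TAMs up to 9.60 to 9.94 in MYC TAMs, and Atp6v0c lies in separate ranges inside control MTMs and MYC TAMs.

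In control mice, Atp6v0d2 was lower in TAMs than in MTMs by a log2 difference of -2.38 ± 0.32 (SE, limma, adjusted p = 0.00387), or 5.19-fold on the log2(level + 1) scale. That call was lost when only these groups entered the fit (adjusted p = 0.0702) and without both control TAM mouse 1 and MYC TAM mouse 4 (adjusted p = 0.0781). Atp6v0d2 was the 1 of 10 members that passed in that comparison, where 2.37% of all genes were called, 0.744% higher and 1.63% lower, and where 18.9% had groups that did not overlap. In MYC mice the order was the opposite, with TAMs higher by 1.56 ± 0.35 (adjusted p = 0.0390), or 2.95-fold, and again 1 of 10 members passed, where 4.49% of all genes were called, 0.664% higher and 3.82% lower, and 30.4% had no overlap. Only the MYC comparison was lost with the mouse as a fixed block (1.52, adjusted p = 0.0527) among the 3 to which that fit applies. The MYC call was also lost with quantile normalisation and without each of 9 single libraries, and under 14 of 21 alternatives in all. Without MYC MTM mouse 2 the difference was 1.17. The TAM minus MTM difference was 3.93 ± 0.47 higher in MYC than in control mice (limma, adjusted p = 0.00882). That test asks whether the differences are unequal, not whether their signs are opposite. Atp6v0d2 was the 1 of 10 members that passed it, where 1.24% of all genes were called, 0.24% higher and 0.996% lower. That call was lost without MYC MTM mouse 2 (3.54, adjusted p = 0.0570) and without both control TAM mouse 1 and MYC TAM mouse 4 (3.75, adjusted p = 0.0762).

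Between genotypes Atp6v0d2 was higher in MYC mice in both cell types. The difference was 8.56 ± 0.32 in TAMs (adjusted p = 1.33e-06), or 377-fold on the log2(level + 1) scale, and ranked 2 from the highest among 17475 genes. In MTMs it was 4.62 ± 0.35 (adjusted p = 0.00123), or 24.7-fold, and ranked 3. In TAMs 3 of 10 members passed, 2 higher and 1 lower, where 15.9% of all genes were called, 3.89% higher and 12% lower, and 30.1% had no overlap. In MTMs 1 of 10 passed, where 0.618% of all genes were called, 0.338% higher and 0.28% lower, and 31.2% had no overlap. These comparisons share libraries with the ones above, so they are not independent of them. The call in TAMs passed under each alternative run; that in MTMs was lost when only the 2 groups compared entered the fit (adjusted p = 0.106).

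The other form of subunit d, Atp6v0d1 (chr8:105524465-105566047, minus strand), is made in most tissues. It read 5.79, 5.84 and 6.16 in control TAMs and 5.98, 5.90 and 5.85 in control MTMs. In MYC mice it read 6.95, 6.04 and 7.15 in TAMs and 6.46 and 6.23 in MTMs. Its MYC TAM libraries of mice 2 and 6 lay above every control library, while that of mouse 4 lay among the control TAMs. The TAM difference between genotypes was 0.79 ± 0.26 and did not pass (adjusted p = 0.0697); without MYC TAM mouse 4 it did. The MTM difference was 0.43 ± 0.29 (adjusted p = 0.723), with no overlap between the groups.

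As a share of the linear level of both d genes, Atp6v0d2 made up 1.83%, 1.75% and 3.24% in control TAMs and 18.7%, 10.8% and 19.9% in control MTMs. It made up 86.3%, 93.8% and 87.1% in the TAMs and 72.7% and 84.4% in the MTMs of MYC mice. The group means were 2.27% ± 0.84 (SD, n = 3), 16.5% ± 4.94 (n = 3), 89.1% ± 4.12 (n = 3) and 78.5% ± 8.24 (n = 2). Control libraries thus held mostly Atp6v0d1 and MYC libraries mostly Atp6v0d2 among d transcripts. No pair of groups compared overlapped, and the two-sided exact permutation p was 0.1 for 3 against 3 libraries and 0.2 for 3 against 2, in each case the smallest the design allows. The summed level of the d genes was 0.453 to 0.695 of that of the 3 a genes in control TAMs and 0.723 to 0.922 in control MTMs. In MYC mice it was 15.2 to 17.6 times the a genes in TAMs and 5.49 to 7.52 times in MTMs.

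**Figure D2:**
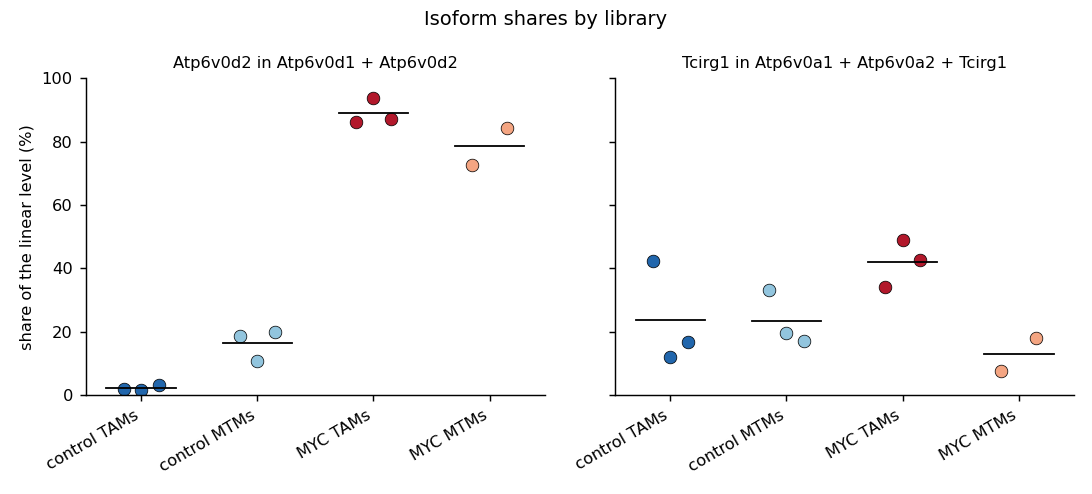
Share of the linear level (vertical axis, percent) held by Atp6v0d2 among the d genes (left) and by Tcirg1 among the a genes (right), with a point for each library and a line for each group mean. The Atp6v0d2 share is 1.75% to 19.9% in control libraries and 72.7% to 93.8% in MYC libraries, while the Tcirg1 share overlaps between most groups.

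Subunit a moved the other way in 1 of its forms. Atp6v0a2 (chr5:124628576-124724455, plus strand), a form known from the Golgi and endosomes, read 5.96, 6.41 and 6.20 in control TAMs and 5.90, 5.69 and 6.17 in control MTMs. It read 4.11, 4.48 and 4.87 in the TAMs and 5.38 and 5.31 in the MTMs of MYC mice, so every MYC library lay below every control library. It was lower in MYC than in control TAMs by a difference of -1.71 ± 0.21 (adjusted p = 0.000726), or 3.26-fold, and this passed under each alternative run. In MTMs the difference was -0.58 ± 0.24 (adjusted p = 0.434), and between MYC TAMs and MTMs it was -0.86 ± 0.24 (adjusted p = 0.0808). An antisense gene, 4930404A12Rik, overlaps Atp6v0a2, and whether the counting used the strand is not stated.

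Tcirg1 (chr19:3896050-3907133, minus strand) read 5.72, 3.91 and 4.22 in control TAMs and 5.02, 3.92 and 4.14 in control MTMs. It read 4.21, 5.12 and 4.91 in the TAMs and 2.43 and 3.64 in the MTMs of MYC mice. The libraries of control mouse 1 were the highest of their groups, and both MYC MTM libraries lay below all others. The difference between MYC TAMs and MYC MTMs was 1.71 ± 0.58 and did not pass (adjusted p = 0.157), but passed with the mouse as a fixed block (adjusted p = 0.0310). The share of Tcirg1 among the a genes was 42.3%, 12.1% and 16.8% in control TAMs and 33.2%, 19.8% and 17.0% in control MTMs. In MYC mice it was 34.2%, 48.8% and 42.7% in TAMs, and 7.57% and 18.2% in MTMs. The MYC groups did not overlap in this share (exact permutation p = 0.2, the smallest that this unpaired test allows), and the control groups did (p = 1).

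Atp6v0a1 (chr11:101009452-101063719, plus strand), the form most abundant in neurons, lay at 2.50 to 3.49 in control MTMs and at 3.31 to 4.29 in the other 3 groups. None of its differences passed, the one between genotypes being 0.04 ± 0.31 in TAMs (adjusted p = 0.950) and 0.82 ± 0.35 in MTMs (adjusted p = 0.454). Atp6v0a4 and Atp6v0e2, the other V0 isoforms, are known mainly from kidney and brain; Atp6v0a4 read 0.01 to 0.69 and Atp6v0e2 0.03 to 0.69 over the libraries. Of these 2 genes 0 passed in any comparison by limma, with at most 1 at an unadjusted p below 0.05.

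**Figure D3:**
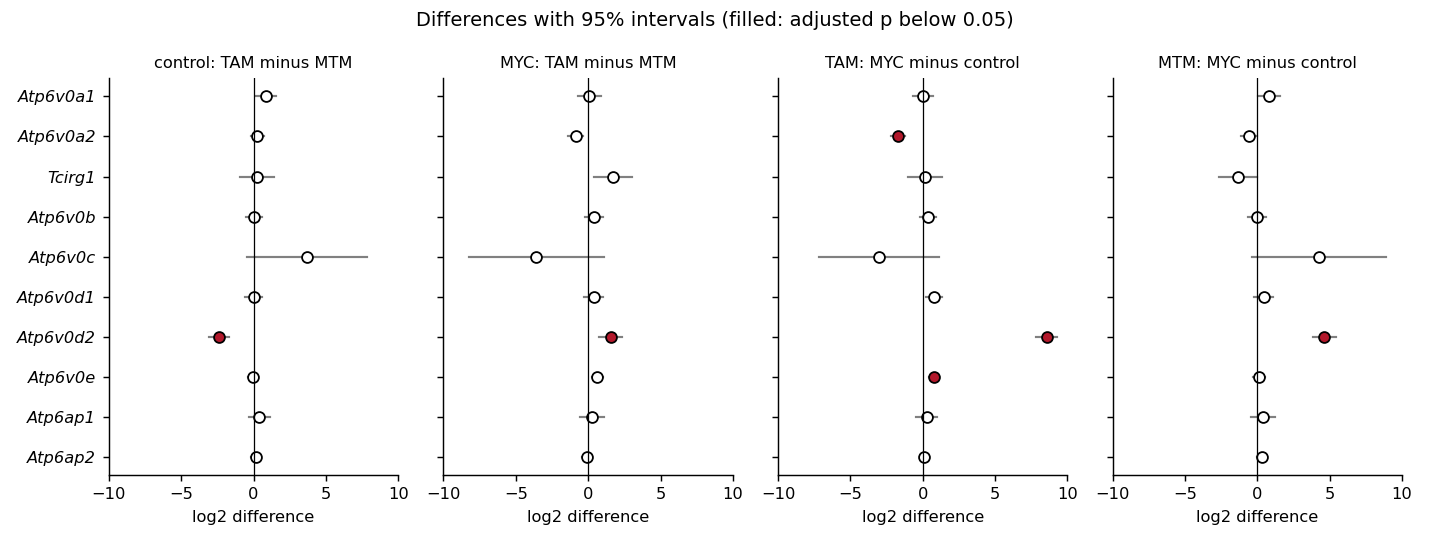
Log2 difference of each gene (horizontal axis) in 4 comparisons, with bars for 95% intervals from limma and filled points for an adjusted p below 0.05. Atp6v0d2 is filled in all 4 panels, at -2.38, 1.56, 8.56 and 4.62 from left to right, and Atp6v0a2 and Atp6v0e are filled in the TAM panel alone.

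Subunit e, a small membrane protein of the V0 sector encoded by Atp6v0e (chr17:26663231-26699647, plus strand), read 5.85, 5.77 and 5.77 in control TAMs and 5.64, 6.02 and 5.81 in control MTMs. It read 6.80, 6.66 and 6.28 in the TAMs and 5.95 and 5.94 in the MTMs of MYC mice. Every MYC TAM library was above all 8 others. The gene was higher in MYC than in control TAMs by 0.78 ± 0.16 (adjusted p = 0.00928), or 1.72-fold. That call was lost without both control TAM mouse 1 and MYC TAM mouse 4 (adjusted p = 0.0567). Over MYC MTMs the MYC TAM difference was 0.63 ± 0.18 and did not pass (adjusted p = 0.0866).

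The ring subunits differed in how their libraries lay. Atp6v0b (subunit c'', chr4:117884326-117887333, minus strand, overlapped by the antisense gene Gm12841) was among the most abundant members. It lay at 6.95 to 8.00 over all 11 libraries. Its differences between groups were -0.02 to 0.39 and none passed, the TAM difference between genotypes being 0.34 ± 0.25 (adjusted p = 0.409). Without control TAM mouse 1, whose value of 8.00 was the highest, that difference passed (adjusted p = 0.0207).

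Atp6v0c (subunit c, chr17:24163866-24169702, minus strand) fell in separate ranges inside 2 groups. It read 6.22, 6.27 and 6.42 in control TAMs, and 6.80 and 6.93 in MYC MTMs. In the MTMs of control mice 1, 3 and 5 it read 6.17, 0.67 and 0.98, and in the TAMs of MYC mice 2, 4 and 6 it read 7.72, 0.71 and 1.37. So 7 libraries lay at 6.17 or above and 4 at 1.37 or below, or about 6873 to 22142 against 51.1 to 166 estimated reads. The ranges within control MTMs (5.50) and MYC TAMs (7.02) were the largest of any member, the next being 1.81 for Tcirg1 in control TAMs. The differences between group means ran from -3.60 to 4.26 with SEs of 1.86 to 2.08, and none passed (adjusted p of 0.342 to 0.550). Without MYC TAM mouse 2 the difference between MYC and control TAMs was -5.26 and passed (adjusted p = 0.0426), so 1 library decides it. Across the table, 56 named genes with a highest value of 5 or more had a range of 4 or more log2 units inside a group, of 2620 named genes that reached 5. They included Calm2, Gabarap, Nedd8, Rpl35, Hmgb1 and Ppia, named after their values were seen.

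**Figure D4:**
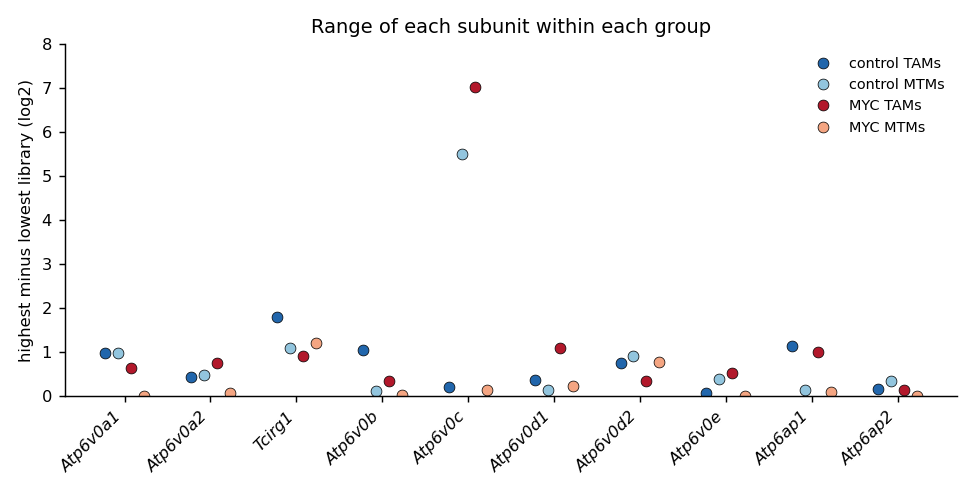
Range of each gene within each group (vertical axis, highest minus lowest library in log2 units), with a point for each group. Atp6v0c reaches 5.50 in control MTMs and 7.02 in MYC TAMs, and no other gene is above 1.81.

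The genome holds near-identical copies of Atp6v0c, and the first 120 coding bases of the gene and of the closer copy are shown because reads from them can hardly be told apart. The processed pseudogene Atp6v0c-ps2 (chr6:37806086-37806550, plus strand) matched 464 of the 465 coding bases (99.8%), with the base that differs in capitals.
Atp6v0c: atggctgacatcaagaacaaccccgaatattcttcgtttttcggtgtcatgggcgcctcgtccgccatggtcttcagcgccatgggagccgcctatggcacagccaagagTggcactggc
Atp6v0c-ps2: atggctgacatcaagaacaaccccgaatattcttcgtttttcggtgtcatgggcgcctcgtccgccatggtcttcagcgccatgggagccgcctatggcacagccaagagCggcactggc

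A further copy, Atp6v0c-ps1 (chr7:4412438-4412900, plus strand), matched 450 of 461 aligned bases (97.6%). Neither pseudogene has a row in the table. How reads that map to several places were counted is not stated, so the level of Atp6v0c is uncertain, and the part of the copies in its separate ranges was not tested.

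Neither accessory protein gene passed the test in any comparison, although in MTMs the libraries of both genes lay higher in MYC than in control mice without overlap. Atp6ap2 (chrX:12587801-12617049, plus strand), also known as the prorenin receptor, was the most abundant member in control TAMs and control MTMs, at 7.76 to 8.19 over all libraries. Its differences were -0.07 to 0.31 and none passed. Atp6ap1 (chrX:74297097-74304721, plus strand), which takes part in assembly of the V0 sector, read 7.32, 6.16 and 6.33 in control TAMs and 6.14 to 6.28 in control MTMs. It read 6.53, 6.58 and 7.53 in MYC TAMs and 6.56 to 6.64 in MYC MTMs. The TAM libraries of control mouse 1 and MYC mouse 6 stood above the rest, and its differences, of 0.27 to 0.40, did not pass.

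Set side by side, the median difference of the 10 members was 0.20 between control TAMs and MTMs, 0.32 between MYC TAMs and MTMs, 0.20 between genotypes in TAMs and 0.36 in MTMs. The medians over all 17475 genes were between -0.02 and 0.00. Over genes with a mean log2 level of 1 or more they were -0.04, -0.20, -0.21 and -0.06 in the same order. In MTMs between genotypes, 6 members were higher without overlap and 2 lower, where 11.1% and 20.1% of all genes were so. In TAMs these were 2 and 1, where 8.03% and 22.1% were. Between TAMs and MTMs, 4 were higher and 2 lower in MYC mice (6.82% and 23.5% of all genes), and 1 was higher and 1 lower in control mice (6.9% and 12%). Atp6v0c, whose level is uncertain, was the 1 higher in control mice and was among the 6 higher in MTMs between genotypes.

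The V1 sector, which holds the ATP-splitting subunits, had 12 of 13 listed genes measured. Between MYC and control TAMs 6 of the 12 rose and 2 fell, where 3.89% of all genes rose and 12% fell, and their median was 0.75. The largest rise was that of Atp6v1c1, a stalk subunit that regulates assembly, which read 7.41, 7.53 and 7.85 in control TAMs and 9.16, 9.41 and 9.47 in MYC TAMs (1.75 ± 0.17, adjusted p = 0.000178). The stalk subunit gene Atp6v1g1 rose by 1.45 ± 0.20 (adjusted p = 0.00133) and the catalytic subunit gene Atp6v1a by 1.31 ± 0.20 (adjusted p = 0.00245). Atp6v1b1, the B subunit form of kidney and other epithelia, fell, from 3.34 to 4.86 in control TAMs to 0.03 to 0.96 in MYC TAMs (-3.48 ± 0.48, adjusted p = 0.00130). Of the 10 epithelial markers, 0 rose and 4 fell in this comparison, and their part in the fall of Atp6v1b1 was not tested. These 4 calls passed under each alternative run. Between TAMs and MTMs of MYC mice 1 rose, Atp6v1c1 (1.00 ± 0.19, adjusted p = 0.0183), a call lost without either MYC MTM library. In control mice between cell types, and in MTMs between genotypes, 0 of 12 passed by limma's adjusted test, while 1 and 5 had an unadjusted p below 0.05.

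**Figure D5:**
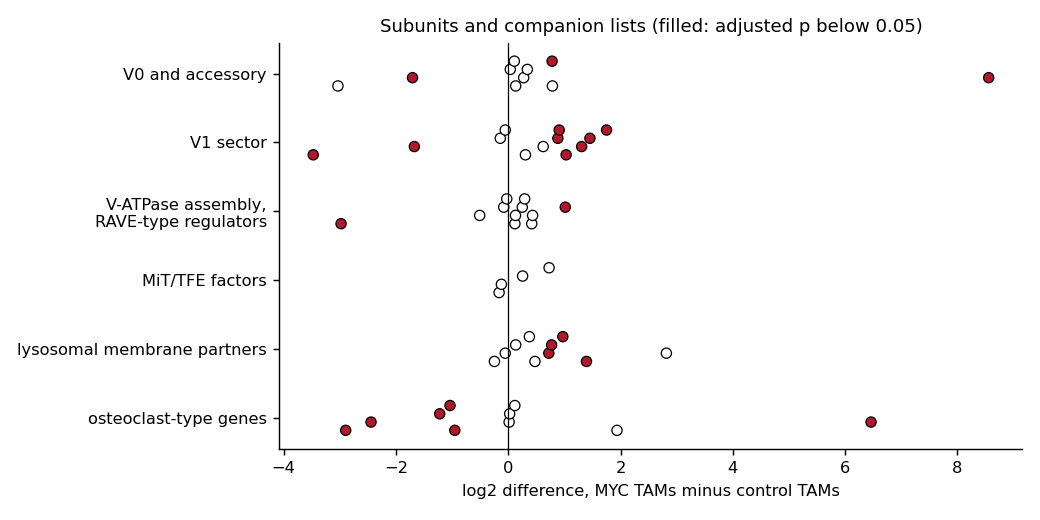
Log2 difference between MYC and control TAMs (horizontal axis) of each measured gene, in rows for the V0 and accessory genes and 5 related lists; each point is a gene, filled where its adjusted p is below 0.05. In the V1 row 6 filled points lie above 0 and 2 below, and Atp6v0d2 at 8.56 and Ctsk at 6.46 lie furthest to the right.

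A list of 11 assembly factors and regulators held, among others, genes of the RAVE type, which joins V1 to V0. Of the 11, 1 rose and 1 fell between MYC and control TAMs, where 3.89% and 12% of all genes did. Rogdi, which encodes a RAVE-type partner, read 7.73, 7.62 and 7.51 in TAMs and 6.58, 6.85 and 6.46 in MTMs of control mice. In MYC mice it read 4.67, 4.40 and 4.85 in TAMs and 5.48 and 5.23 in MTMs. Its 4 groups did not overlap, and their order was the reverse of that of Atp6v0d2. The TAM difference was -2.98 ± 0.16 (adjusted p = 8.03e-06) and the MTM difference -1.28 ± 0.18 (adjusted p = 0.0163), the latter lost without either MYC MTM library. In control mice Rogdi was higher in TAMs (0.99 ± 0.16, adjusted p = 0.0115), a call lost without the TAM library of mouse 1 or the MTM library of mouse 1 or of mouse 5. The antisense gene Gm42477 overlaps Rogdi. Dmxl2, a large RAVE-type subunit, rose in MYC TAMs by 1.02 ± 0.30 (adjusted p = 0.0491), a call lost under 12 of 20 alternatives. Of the 4 MiT/TFE factor genes (Tfeb, Tfe3, Mitf and Tfec), 0 passed in any comparison by limma, with at most 1 at an unadjusted p below 0.05.

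Among 10 genes of lysosomal membrane proteins, 4 rose and 0 fell between MYC and control TAMs (3.89% and 12% of all genes), with a median of 0.60. They were the channel gene Mcoln1 (1.39 ± 0.32, adjusted p = 0.0155), Lamp2 (0.72 ± 0.19, adjusted p = 0.0281), the tetraspanin gene Cd63 (0.97 ± 0.27, adjusted p = 0.0399) and the cholesterol transporter gene Npc1 (0.77 ± 0.22, adjusted p = 0.0403). Each of these 4 calls was lost without control TAM mouse 3, and likewise without control TAM mouse 5, and some without other libraries. Between MYC TAMs and MTMs Cd63 rose (1.53 ± 0.31, adjusted p = 0.0239), which was lost without either MYC MTM library and with the mouse as a fixed block (adjusted p = 0.0527).

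Of 10 genes known from osteoclasts, where the d2 and a3 subunits are best known, 1 rose and 5 fell between MYC and control TAMs (3.89% and 12% of all genes), with a median of -0.47. The protease gene Ctsk rose by 6.46 ± 0.63 (adjusted p = 0.000187), from 0.38 to 0.51 in control TAMs to 5.63 to 8.03 in MYC TAMs. Ocstamp (-2.90 ± 0.15, adjusted p = 6.30e-06) and Dcstamp (-2.45 ± 0.24, adjusted p = 0.000191), which take part in cell fusion, fell. The acid phosphatase gene Acp5 fell by 1.04 on the log2 scale (adjusted p = 0.00356). In control mice Ocstamp (2.32), Acp5 (1.79) and Dcstamp (1.57) were higher in TAMs than in MTMs, while Mmp9 was lower (-2.11, adjusted p = 0.00336) as Atp6v0d2 was. Between cell types of MYC mice, Mmp9 was likewise lower in TAMs (-1.57, adjusted p = 0.0212), a call lost with the mouse as a fixed block (adjusted p = 0.0785) and without MYC TAM mouse 2, MYC TAM mouse 4 or MYC MTM mouse 2. The genes of this list thus went in both directions.

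Over the 11 libraries, the gene whose values were most like those of Atp6v0d2 was Gpnmb, a lysosomal and membrane glycoprotein gene (Pearson r = 0.996), with group means of 3.84 in TAMs and 6.95 in MTMs of control mice, and 13.53 in TAMs and 11.24 in MTMs of MYC mice. It was followed by Dym (0.991), Rasgef1a (0.983), Ahnak2 (0.982), the fatty acid carrier gene Fabp4 (0.981), Alcam (0.980), Plscr4 (0.978) and Rora (0.978). The most opposite were Rogdi (-0.993), Ppfia4 (-0.989), Hepacam2 (-0.988) and F11r (-0.985). The libraries fall in 4 groups and 5 of the 6 mice gave 2 of them, so these values describe group order and carry no p. Among the members, Atp6v0e (0.752) and Atp6v0d1 (0.736) were most like Atp6v0d2, Atp6v0a2 was opposite (-0.897), and the other 6 lay between -0.146 and 0.514.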

How the data were processed

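Messenger RNA of 11 libraries was analysed from the authors' deposited log2 expression table, whose formula is not stated in the sources used here. Per the labels' protocols, 500 ng of RNA (integrity numbers 3.3 to 9.6) were enriched for poly-A RNA, made into stranded libraries and amplified for 8 cycles. The submitters' processing notes name HISAT2, DESeq2 and the builds mm10 and GRCm38.p5, with no role. Of 8978 low values, 91.8% were whole reads within 0.1 read, under a model of reads plus 1, scaled and divided by exon length (found for 93.5% of genes); this gave the depths, which cover counting error only.

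Group means were fitted with limma 3.58.1 (R 4.3.3, moderated variances with a trend) to all 17475 rows and 11 libraries, in 5 comparisons, two-sided, with Benjamini-Hochberg adjustment over all rows and a threshold of 0.05. No filter on low values was used, so all 10 members were tested. Shares used 2 to the power of the value, minus 1. The labels give the mouse, which pairs TAMs and MTMs; deviations from the group means correlated at 0.176, 0.211 and 0.0779 in control mice and 0.0983 and 0.0379 in MYC mice. Blocked fits are given where they change a call. P-values of the main fit measure the spread between libraries of a group, each from a different mouse, and leave out the pairing. For the TAM minus MTM comparisons and the difference of differences, they do not measure the spread of differences within mice.

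The members and the lists were chosen with earlier results of these data known. All members were named in every comparison, up to 4 passing genes of each list per comparison by adjusted p, and the 8 most like and 4 least like Atp6v0d2 with a mean of 1 or more. Annotation came from GENCODE M21 (GRCm38). The test was checked on simulated data. Figures and sequences used Python 3.11.15, matplotlib 3.10.9 and biopython 1.88.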

Additional observations from a re-analysis of the deposited data

Results flagged for a closer look

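For 10 genes named above the TAM minus MTM difference itself differed between MYC and control mice, by limma's test of the difference of differences. For Atp6v0d2 it was 3.93 higher in MYC mice (adjusted p = 0.00882), with TAMs above MTMs in MYC mice and below them in control mice. For Ocstamp it was -2.41 (adjusted p = 0.00300), with control TAMs at 2.94 to 3.29, control MTMs at 0.65 to 0.90 and all MYC libraries at 0.14 to 0.34. For Rogdi it was -1.70 (adjusted p = 0.0144), with the call lost without either MYC MTM library and with the mouse as a fixed block (adjusted p = 0.0541). The other 7 were named for likeness to Atp6v0d2 or as macrophage markers. Genes picked as most or least like Atp6v0d2, Rogdi among them, follow or mirror its group order by that choice. Their calls are therefore not separate support for the call of Atp6v0d2. Gpnmb, at 5.40 (adjusted p = 0.00754), had a larger value than Atp6v0d2, and that of Fabp4 was 3.60 (adjusted p = 0.0347). F11r was at -1.68 (adjusted p = 0.00891), Ppfia4 at -1.85 (adjusted p = 0.0262) and Hepacam2 at -1.52 (adjusted p = 0.0436). The macrophage marker genes Csf1r and Emr1 were at -2.50 (adjusted p = 0.00882) and -1.99 (adjusted p = 0.0436). Each of these 7 calls was lost without MYC MTM mouse 2. All genes were tested alike, and 1.24% of them passed.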

How the results depend on the processing

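Of the 50 results of the 10 members, 7 passed. All 7 kept their direction under the alternatives run for them (22 in all), and 2 passed under each, namely Atp6v0d2 and Atp6v0a2 between genotypes in TAMs. The cause of the other losses was not tested. Some came in fits with fewer libraries and others in fits of all 11, such as the fixed block. Of 31 calls on the related lists, 13 passed under each alternative. Members passing fell from 1 to 0 when only the groups compared entered the fit, in both cell type comparisons and in MTMs between genotypes. They also fell to 0 without control TAM mouse 1 and MYC TAM mouse 4 (left out together after seeing the data) in both cell type comparisons and for the difference of differences, and in MYC mice with a pseudocount of 0.1. With a minimum mean of 1, 2 passed in MYC mice, and with quantile normalisation Atp6v0e passed there in place of Atp6v0d2. Leaving out 1 library gave 0 to 2 in MYC mice and 0 to 1 for the difference of differences. Atp6v0c passed in no comparison of the main fit, so leaving it out could not change a count of passing members there. The counts without overlap and the member medians do include it. With the replicate block as a fixed term, Tcirg1 (1.63) passed in place of Atp6v0d2 (1.52) between MYC TAMs and MTMs, and Cd63, Mmp9 and Rogdi lost the calls named above, as did 6 of the 7 other genes given for the difference of differences (Gpnmb kept its call); no other call of the members and lists changed, and a random block (correlation 0.127) changed none. Centring each library on its median moved the median difference of all genes by over 0.1 in 3 comparisons, from -0.01 to 0.15 between MYC TAMs and MTMs, from -0.02 to 0.19 between genotypes in TAMs and from -0.02 to 0.10 between genotypes in MTMs.

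Sign changes were seen for 12 member results, none of which had passed. Between control TAMs and MTMs, without control TAM mouse 1 and MYC TAM mouse 4, Tcirg1 was -0.30 and Atp6v0b -0.31, and Atp6v0e was 0.052 with median centring and 0.016 with quantile normalisation. Between MYC TAMs and MTMs, Atp6ap1 was -0.050 with the fixed block, and Atp6ap2 was 0.10 with median centring and 0.065 with quantile normalisation. Without the 2 libraries, Atp6v0a1 was -0.25 between genotypes in TAMs and Atp6ap1 was 0.38 for the difference of differences. Atp6v0b was 0.10 between genotypes in MTMs with median centring. Leaving out 1 library gave ranges that crossed 0. In control mice they were -0.30 to 0.61 for Tcirg1, -0.31 to 0.22 for Atp6v0b, -0.10 to 0.088 for Atp6v0d1 and -0.12 to 0.074 for Atp6v0e. In MYC mice they were -0.062 to 0.26 for Atp6v0a1 and -0.050 to 0.45 for Atp6ap1. Between genotypes in TAMs they were -0.24 to 0.25 for Atp6v0a1, -0.22 to 0.68 for Tcirg1 and -0.051 to 0.63 for Atp6ap1, and in MTMs -0.045 to 0.014 for Atp6v0b. For the difference of differences the range was -0.45 to 0.23 for Atp6ap1. The Tcirg1 share of the a genes differed between control TAMs and MTMs by -8.88 to 6.24 percentage points. The number of mice, 2 or 3 per group, limits the precision of all these values.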
